A study of Mus musculus with 12 samples.

Results

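The aminoacyl-tRNA synthetase genes were examined in mouse C18-4 and TM4 cells after knockdown of the M5 muscarinic acetylcholine receptor. Members were all genes of the table whose symbol had the form of a synthetase symbol (such as Aars or Aars2), with Farsa, Farsb and Eprs, and this gave 37 of the 17995 genes. Symbols ending in 2 name the enzymes of the mitochondrial matrix, and they gave 17 mitochondrial members. The remaining 20 were taken as the cytosolic members. The rule itself uses symbols and no measured value, and all 37 passed the filter on low values in both lines.

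C18-4 is a line of mouse spermatogonial stem cells and TM4 is a line of mouse Sertoli cells. In each line, cells given a mixture of 3 shRNAs against M5 (shM5, labelled CM5 and TMM5) were compared with cells given a control shRNA (shNC, labelled C3NC and TM3NC). There were 3 libraries in each of the 4 groups, 12 in all, and the strain field of all of them reads IRC. Nothing in the labels says that the libraries of a group came from separate cultures, so p-values measure the spread between these libraries, which may be technical. All values are of cell lines, and each line stands for its cell type only as far as its markers allow. Levels are RPKM, reads scaled to gene length and library size, so that they can be compared between genes per length.

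Aminoacyl-tRNA synthetases join each amino acid to its tRNA, the step that fixes the genetic code in protein synthesis. The cytosol and the mitochondria use separate sets of these enzymes, encoded by separate nuclear genes, except that Gars and Kars (glycine and lysine) each serve both compartments. There is no mitochondrial glutamine enzyme. Ears2 puts glutamate on that tRNA, and the amidotransferase of Gatb, Gatc and Qrsl1 converts it. Several cytosolic enzymes sit in a multi-synthetase complex held by the scaffold proteins Aimp1, Aimp2 and Eef1e1. Several synthetase genes of the cytosol are known targets of ATF4, the transcription factor of the amino acid and unfolded protein responses.

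Some facts of the libraries touch every result. In TM4 cells, the library labelled shNC replicate 3 differed from shNC replicates 1 and 2 by a root mean square log2 difference of 0.642 and 0.644, and from the shM5 libraries by only 0.199 to 0.250. Replicate 3 of both groups also stood apart in C18-4 cells, at 0.374 to 0.442 from replicates 1 and 2 of its own group. The relative value of 1 read, taken from the steps between low values, was 0.993 to 1.014 in all libraries. It came from 71 genes kept because their values lay near whole multiples of the lowest value. It therefore cannot show that the libraries were of similar depth. Chrm5, the gene of the M5 receptor, was listed at 0 to 0.01 RPKM in every library and could not check the labels. Of 11 spermatogonial markers with values, 9 stayed under 1 RPKM in every C18-4 library. Their sum was 3.98 to 6.51 RPKM in C18-4 cells and 6.03 to 7.61 RPKM in TM4 cells. The Sertoli markers Wt1 and Sox9 were at 53.9 to 72.3 RPKM and 0 to 0.01 RPKM in C18-4 cells, and at 0.06 to 0.15 RPKM and 1.11 to 1.74 RPKM in TM4 cells. Kitl and Inhbb were higher in TM4 cells, at 18.4 to 49.5 RPKM and 11.97 to 16.8 RPKM. In C18-4 cells they were at 2.06 to 2.93 RPKM and 0.52 to 1.23 RPKM. Clu ran the other way, at 5.55 to 10.48 RPKM in C18-4 cells and 0 to 0.07 RPKM in TM4 cells. Of 8 Sertoli markers tested between the lines, 4 were lower and 2 higher in C18-4 cells in the shNC groups, and 5 lower and 2 higher in the shM5 groups (limma, adjusted p below 0.05). Summed mesenchymal markers reached 1326 to 1882 RPKM in TM4 cells and 428.8 to 590.1 RPKM in C18-4 cells. Within that list Col1a1 ran the other way, at 130.8 to 290.7 RPKM in TM4 cells and 287.2 to 385.7 RPKM in C18-4 cells. Leydig, macrophage and endothelial markers summed to at most 4.28 RPKM in any library.

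Cytosolic synthetase genes were expressed far above the mitochondrial ones. Their levels summed to 1962 to 3431 RPKM per library, against 150.4 to 175.8 RPKM for the mitochondrial class. The highest cytosolic member was Gars (279 RPKM over the 12 libraries), followed by Aars for alanine (235 RPKM), Kars (233 RPKM) and Nars for asparagine (229 RPKM). The lowest was Qars, the glutamine enzyme, at 39.0 RPKM. Among mitochondrial members, Iars2 for isoleucine was highest (27.0 RPKM) and Pars2 for proline lowest (2.88 RPKM), so that the classes did not overlap in their means over all libraries. Within a single group they could: in TM4 shNC the mean of Qars (28.8 RPKM ± 16) lay below that of Iars2 (31.1 RPKM ± 1.7).

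The order within the cytosolic class was not the same in both lines. In C18-4 cells given shNC, Nars (285 RPKM ± 24, SD, n = 3) and Gars (280 RPKM ± 40) did not differ beyond their spread, and both lay above Kars (213 RPKM ± 31) and Aars (197 RPKM ± 13). In TM4 cells given shM5, Kars (263 RPKM ± 8.5) lay above Gars (194 RPKM ± 4.2) and Aars (192 RPKM ± 5.6), which did not differ beyond their spread. Nars stood at only 115 RPKM ± 2.8 there, below Tars, the threonine enzyme, at 150.2 RPKM ± 3.5. Wars, the tryptophan enzyme, was the lowest cytosolic member of that group (30.2 RPKM ± 1.2), below Qars (47.9 RPKM ± 2.5).

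**Figure D1:**
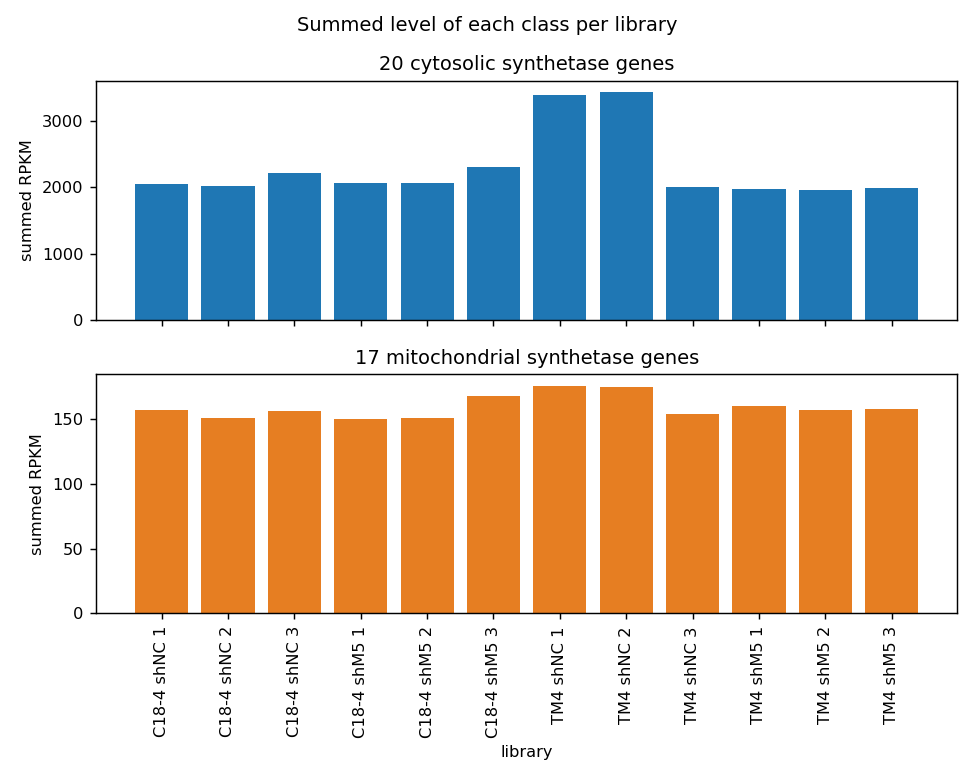
Summed level (RPKM, bars from 0) of the 20 cytosolic members (upper panel) and the 17 mitochondrial members (lower panel) in each of the 12 libraries. TM4 shNC replicates 1 and 2 stand at 3394 and 3431 RPKM in the upper panel while all other libraries lie at 1962 to 2313 RPKM, and the lower panel runs from 150.4 to 175.8 RPKM.

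In TM4 cells, cytosolic synthetases were high in shNC replicates 1 and 2 and about equal in the other 4 libraries. The summed cytosolic level was 3394, 3431 and 2007 RPKM in the shNC libraries and 1968, 1962 and 1989 RPKM in the shM5 libraries. The mitochondrial sum was 175.8, 174.8 and 153.7 RPKM in shNC and 160.4, 157.2 and 157.6 RPKM in shM5. The ratio of the sums was 19.3, 19.6 and 13.1 in the shNC libraries and 12.3, 12.5 and 12.6 in the shM5 libraries. With all 3 shNC libraries, shM5 against shNC gave a median log2 fold change of -0.63 for the cytosolic members (17 lower, 3 higher) and of -0.01 for the mitochondrial members (9 lower, 8 higher), against 0.04 for all genes tested.

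No member passed an adjusted p of 0.05 in this comparison (limma on log2(RPKM + 0.1), Benjamini-Hochberg over all genes). Neither did any other gene, 0% of the 11016 tested, and the smallest adjusted p of all genes was 0.192. At an unadjusted p under 0.05 there were 18 members (14 cytosolic and 4 mitochondrial) and 2866 genes in all (26.0%). Between the groups, all shM5 libraries lay below all shNC libraries for 10 cytosolic members (Cars, Dars, Farsb, Gars, Lars, Nars, Sars, Tars, Vars and Yars) and 2 mitochondrial members (Mars2 and Sars2), against 11.1% of all genes. They lay above for 2 cytosolic members (Hars and Kars) and 2 mitochondrial members (Cars2 among them), against 15.7% of all genes.

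Leaving out shNC replicate 3 changed this outcome. With the other 2 shNC libraries against 3 shM5 libraries, 28 of the 37 members passed, 23 lower and 5 higher, where 30.9% of all genes passed as lower and 36.5% as higher. In the cytosolic class 17 of 20 fell and Kars and Qars rose. In the mitochondrial class 6 of 17 fell and 3 rose. At the limit of the study's methods (adjusted p up to 0.001, a change of 1 or more on the log2 scale in either direction), 8 members passed as lower and Qars as higher, against 3.97% and 4.15% of all genes. The cytosolic median was then -0.92 and the mitochondrial -0.08. The members' counts are to be read against these shares. The library left out was the shNC library nearest to the shM5 libraries. The 2 shNC libraries that remained differed by a root mean square log2 difference of only 0.183. The small SE and p-values without shNC replicate 3, here and below, rest on that omission.

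**Figure D2:**
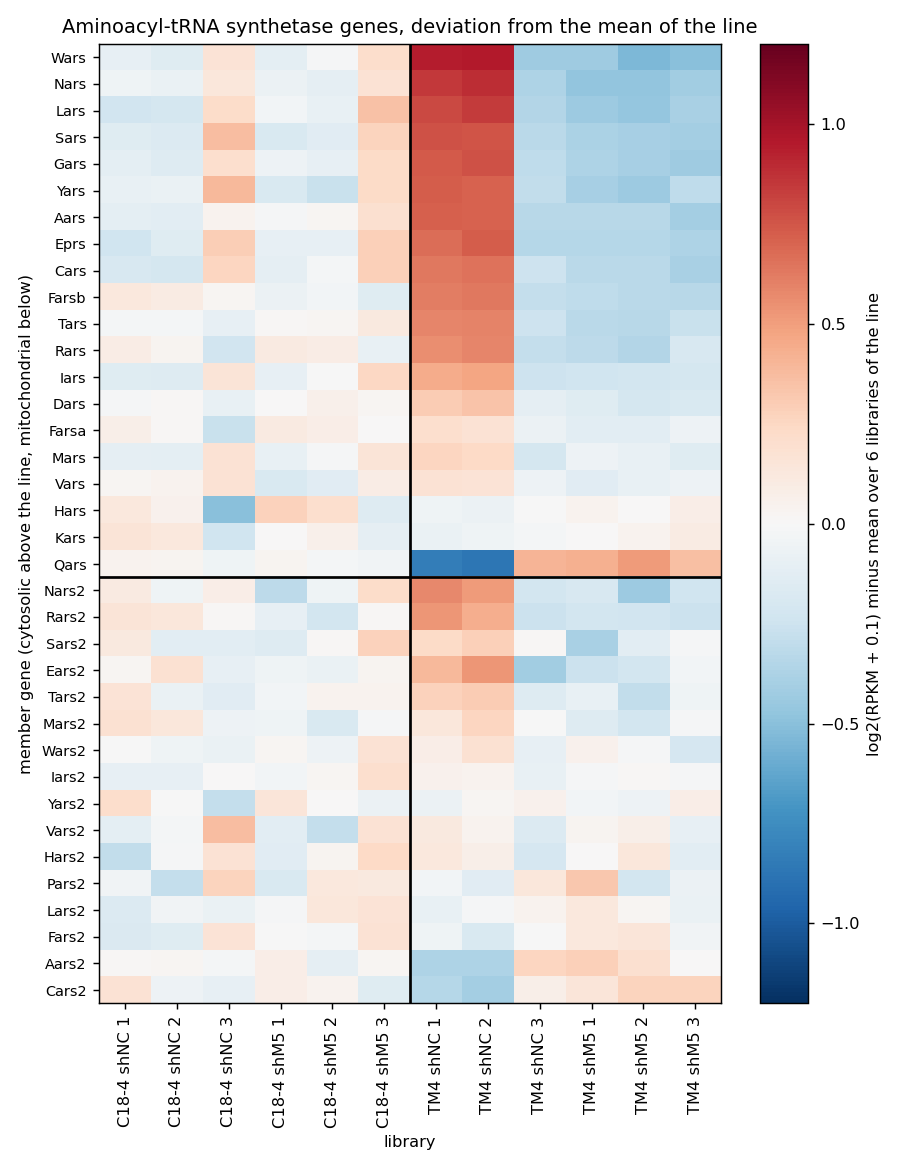
Deviation of log2(RPKM + 0.1) from the mean of the 6 libraries of a line, for 36 members (rows, ordered by fold change in TM4 cells within each class) in each library (columns). In TM4 cells, shNC replicates 1 and 2 are red for most cytosolic rows and blue for Qars, while shNC replicate 3 has the colours of the shM5 libraries, and replicate 3 of both C18-4 groups is red for Sars, Yars, Eprs, Cars and Lars.

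Wars, the tryptophan enzyme, had the lowest fold change of the class. Its level was 81.3, 82.1 and 31.5 RPKM in the TM4 shNC libraries and 31.5, 29.1 and 29.98 RPKM in the shM5 libraries. The groups overlapped through shNC replicate 3 alone. The log2 fold change was -0.98 ± 0.37 (SE, adjusted p = 0.192, limma), and -1.43 ± 0.05 (adjusted p = 6.2e-07, limma) without that library.

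Nars, the asparagine enzyme, stood at 284.7, 291.4 and 121.8 RPKM in shNC and at 113.6, 113.6 and 118.5 RPKM in shM5. All shM5 libraries lay below the shNC libraries, but shNC replicate 3 by a small margin. Its log2 fold change was -0.91 ± 0.33, and -1.32 ± 0.04 without shNC replicate 3. Lars for leucine read 148.2, 153.3 and 67.0 RPKM in shNC against 63.2, 62.2 and 65.4 RPKM in shM5, with the same pattern (-0.85 ± 0.31, and -1.24 ± 0.04 without that library). Sars for serine read 198.5, 197.7 and 93.3 RPKM in shNC against 89.6, 88.6 and 87.9 RPKM in shM5 (-0.80 ± 0.29, and -1.16 ± 0.04). In all of these, shNC replicate 3 was within 10 RPKM of an shM5 library.

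Qars ran the other way. The glutamine enzyme was at 19.9, 19.4 and 47.0 RPKM in shNC and at 47.9, 50.5 and 45.5 RPKM in shM5. The low libraries were shNC replicates 1 and 2, and shNC replicate 3 lay within the shM5 range. Its log2 fold change was 0.86 ± 0.34 (adjusted p = 0.192, limma), and 1.28 ± 0.05 (adjusted p = 1.6e-06, limma) without shNC replicate 3.

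Kars, for lysine, and Hars, for histidine, differed little between the groups. Kars was at 241.5, 245.1 and 251.0 RPKM in shNC and at 255.4, 262.4 and 272.3 RPKM in shM5 (0.10 ± 0.06). Hars was at 80.4, 79.3 and 83.0 RPKM in shNC and at 85.5, 83.5 and 87.8 RPKM in shM5 (0.08 ± 0.06). Both had all shM5 libraries above all shNC libraries. Without shNC replicate 3, Kars rose by 0.11 (adjusted p = 0.0382, limma) and Hars missed the threshold at 0.10 (adjusted p = 0.0594, limma).

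Both genes of the phenylalanine enzyme were measured. Farsb, its β subunit, had a log2 fold change of -0.64 ± 0.25 and Farsa, its α subunit, of -0.20 ± 0.09, and without shNC replicate 3 they fell by 0.95 and 0.29. Farsa read 76.3, 74.8 and 63.3 RPKM in shNC and 60.9, 60.9 and 63.8 RPKM in shM5, while Farsb read 135.7, 137.6 and 72.8 RPKM and 71.6, 70.6 and 70.4 RPKM. Farsb was therefore the more abundant transcript per length in every TM4 library. The difference between the subunits was not tested.

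**Figure D3:**
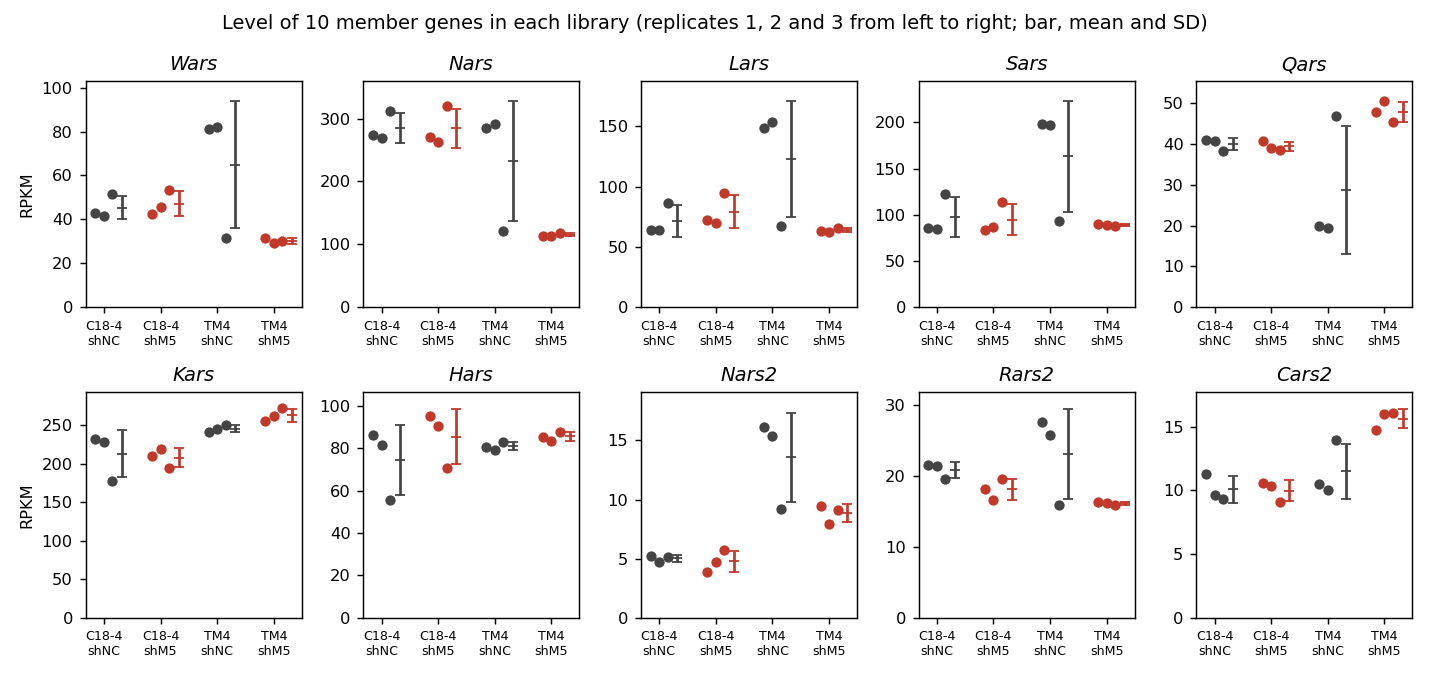
Level (RPKM, axes from 0) of 10 members in each library, with replicates 1, 2 and 3 from left to right in each group and a bar for the mean and SD (n = 3), shNC in grey and shM5 in red. TM4 shNC replicates 1 and 2 lie apart from shNC replicate 3 for Wars, Nars, Lars, Sars, Qars, Nars2, Rars2 and Cars2, and the C18-4 groups overlap for all 10 members.

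Mitochondrial members had fold changes in both directions. Nars2 was at 16.1, 15.4 and 9.22 RPKM in the TM4 shNC libraries and at 9.45, 7.96 and 9.10 RPKM in the shM5 libraries (log2 fold change -0.57 ± 0.22). Rars2, for arginine, read 27.6, 25.8 and 15.9 RPKM in shNC and 16.4, 16.2 and 15.9 RPKM in shM5 (-0.48 ± 0.21). Cars2, for cysteine, read 10.5, 10.02 and 13.99 RPKM in shNC and 14.8, 16.0 and 16.1 RPKM in shM5 (0.45 ± 0.14). The groups did not overlap for Cars2, and for Nars2 and Rars2 they overlapped through shNC replicate 3. Without that library Nars2, Rars2, Sars2, Ears2, Tars2 and Mars2 fell, 3 members, with Cars2 and Aars2 among them, rose, and the other 8 did not pass.

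Cytosolic and mitochondrial enzymes for the same amino acid came apart most for cysteine, alanine and leucine. The log2 fold change of the cytosolic gene minus that of its mitochondrial counterpart was -1.14 for Cars and Cars2, -1.05 for Aars and Aars2, and -0.90 for Lars and Lars2. The ratio of Aars to Aars2 was 139.5, 139.0 and 43.1 in the TM4 shNC libraries and 42.1, 45.0 and 49.1 in the shM5 libraries. In C18-4 cells the same ratio was 44.1 to 54.9 in all 6 libraries. The ratio of Cars to Cars2 was 10.7, 11.4 and 4.36 in TM4 shNC and 3.93, 3.63 and 3.44 in TM4 shM5. Only shNC replicates 1 and 2 set these ratios apart in TM4 cells.

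Structure and complex membership were also compared within the cytosolic class, as a description. The 10 class I enzymes (with Eprs, which carries a glutamate part of class I and a proline part of class II, counted here) had a median log2 fold change of -0.63, and so did the 10 class II enzymes. The 8 members of the multi-synthetase complex had a median of -0.40 (2 higher, 6 lower), and the 12 members outside it -0.70 (1 higher, 11 lower). The complex holds both Kars and Qars, 2 of the 3 genes that were not lower.

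**Figure D4:**
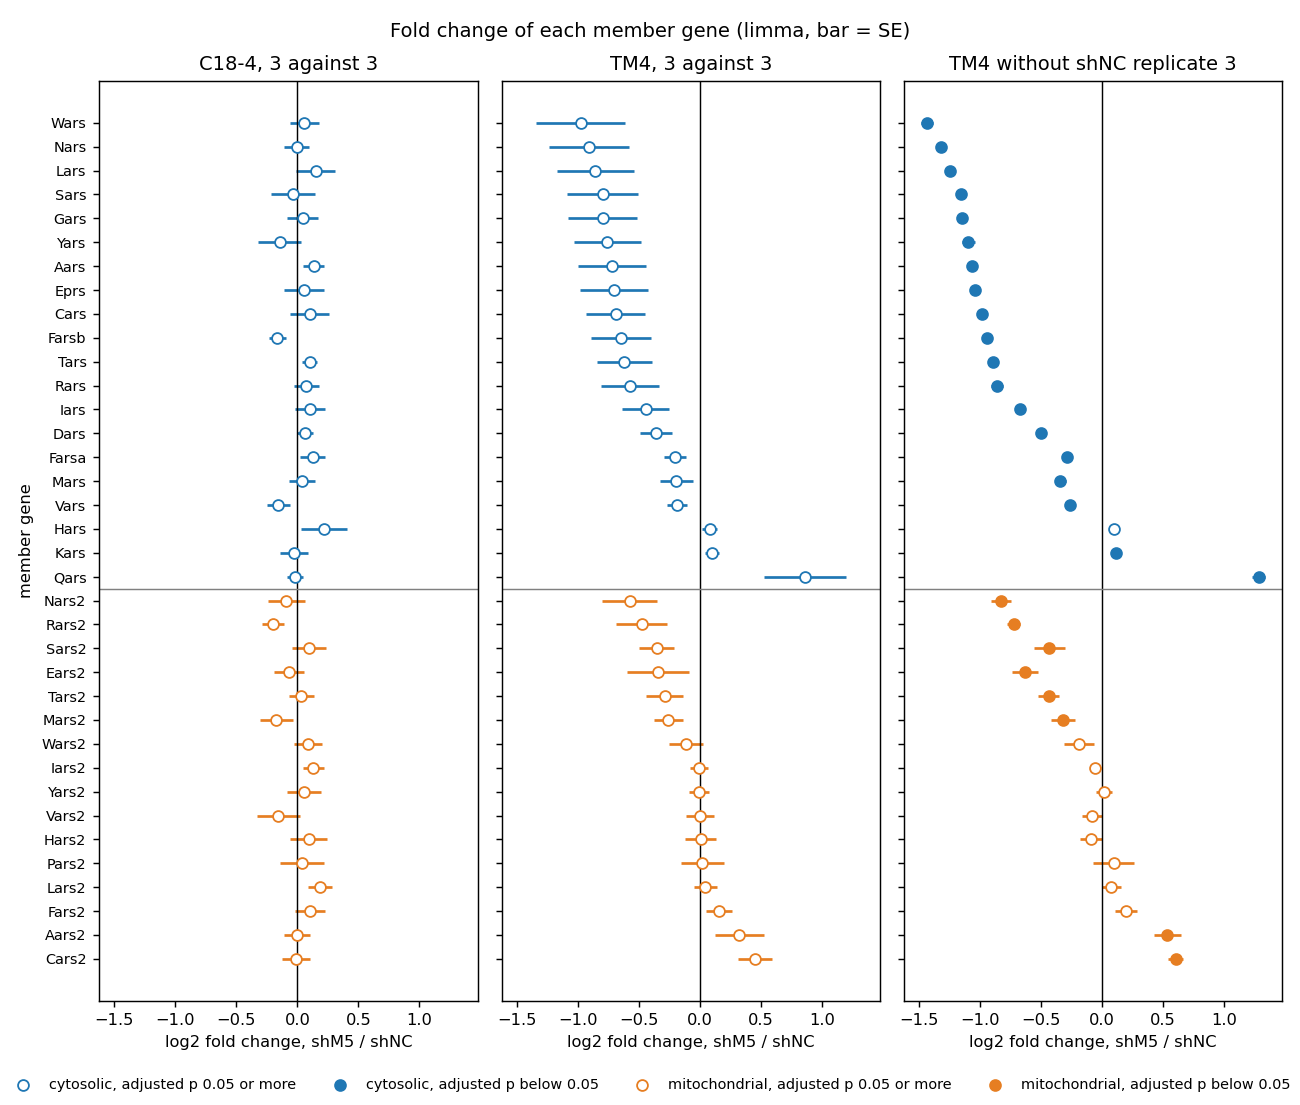
Log2 fold change of shM5 against shNC for 36 members (limma, points with SE bars) in C18-4 cells, in TM4 cells and in TM4 cells without shNC replicate 3, with filled points for an adjusted p below 0.05. No point is filled in the first 2 panels and 27 are filled in the last, and the C18-4 values lie between -0.20 and 0.22.

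The partners of the synthetases were tested in the same fit, from lists of fixed membership. None of them passed in TM4 cells with all libraries. Without shNC replicate 3, 10 of 20 passed, 7 lower and 3 higher, where 30.9% and 36.5% of all genes did. All 3 scaffold genes of the complex fell, led by Eef1e1, whose level was 63.9, 68.1 and 38.8 RPKM in shNC and 37.5, 39.0 and 37.5 RPKM in shM5. Of the 3 amidotransferase genes, Gatc fell by 0.91 and Gatb and Qrsl1 did not pass. None of the 4 genes of cytosolic elongation factor 1, which carries charged tRNA to the ribosome, passed either way. Tufm, the mitochondrial elongation factor, rose by 0.76 and its exchange factor Tsfm did not pass. Among 5 synthetase-like and editing proteins, Dtd1 and Dtd2 fell by 0.24 and 0.78, and Aarsd1 and Tarsl2 rose. Dtd1 and Dtd2 remove wrongly joined amino acids from tRNA. Of 3 enzymes that modify a residue already on its tRNA, Sepsecs, of selenocysteine synthesis, fell by 1.11 on the log2 scale and Mtfmt and Pstk did not pass.

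The same libraries differed in the ATF4 arm, a list of 20 genes with Atf4, the kinases upstream of it and its known targets. In TM4 shNC replicates 1 and 2 minus replicate 3, its median log2 difference was 1.32, against 0.88 for the cytosolic members, 0.19 for the mitochondrial members, -0.12 for 73 cytosolic ribosomal protein genes and -0.03 for all genes. In the shM5 libraries minus shNC replicate 3, the medians were -0.07, -0.04, 0.02, -0.01 and 0.01 in the same order. Asns, the asparagine synthetase gene, was at 528.8, 539.0 and 196.5 RPKM in TM4 shNC and at 185.4, 188.6 and 176.6 RPKM in shM5. Atf4 itself was at 445.8, 432.2 and 296.9 RPKM in shNC and at 267.4, 275.3 and 275.4 RPKM in shM5. In both lists, 17 of 20 genes had shNC replicates 1 and 2 above all 4 other TM4 libraries, which held for 35.4% of all genes. The 3 with both below all others were Hars, Kars and Qars among the cytosolic members and the kinase genes Eif2ak1, Eif2ak3 and Eif2ak4 in the ATF4 arm, against 40.7% of all genes. Some cell type markers also differed along these libraries. In TM4 cells, Kitl was at 49.5, 49.4 and 22.7 RPKM in shNC and at 18.4, 18.5 and 21.99 RPKM in shM5, and Acta2 was at 66.4, 63.3 and 139.8 RPKM in shNC and at 143.9, 141.7 and 193.9 RPKM in shM5. The summed Sertoli markers were at 83.1, 81.3 and 44.8 RPKM in shNC and at 41.4, 42.1 and 44.05 RPKM in shM5, and the summed mesenchymal markers at 1337, 1326 and 1609 RPKM and at 1847, 1882 and 1427 RPKM. Without shNC replicate 3, 3 of 6 Sertoli markers fell and 4 of 6 mesenchymal markers rose, where 30.9% of all genes fell and 36.5% rose. The Sertoli markers did not move as a set. Inha was at 1.73, 1.68 and 2.35 RPKM in shNC and at 2.02, 1.81 and 1.99 RPKM in shM5. Sox9 was at 1.74, 1.13 and 1.19 RPKM in shNC and at 1.17, 1.11 and 1.43 RPKM in shM5. The part of the ATF4 arm and of these markers in the synthetase levels was not tested. In bulk RNA, fewer cells of a kind and less RNA per cell cannot be told apart.

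Promoter sequence was searched for the element of the ATF4 arm because most members of both lists were high in the same libraries. RefSeq windows (GRCm38.p6, 250 bases before to 50 after the start of the gene) were at hand for 27 of the 37 members. The other 10, with Cars, Hars, Hars2, Lars, Nars, Pars2, Rars, Vars and Wars among them, were not analysed here. The motif TGATGNAA, the C/EBP-ATF element that ATF4 is known to bind, was searched on both strands. It was in 5 of 13 cytosolic windows (38.5%), in none of 14 mitochondrial windows, in 4.51% of 27025 genes with a window, and in 2.66% of the 8897 genes tested in TM4 cells that had one. The stricter TGATGCAA, which is contained in the first motif, was in 4 of the 13 (1.03% of all genes). The stretches of the 5 genes are shown on the strand of the gene, 5′ to 3′, with the match in capitals. It reads as the reverse complement in all but Yars.
Aars, the alanine enzyme, chr8:111033690-111033749, + strand: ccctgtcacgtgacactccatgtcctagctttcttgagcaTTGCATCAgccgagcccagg
Gars, the glycine enzyme, chr6:55037931-55037990, + strand: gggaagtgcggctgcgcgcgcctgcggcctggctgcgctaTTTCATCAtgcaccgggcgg
Iars, the isoleucine enzyme, chr13:49682097-49682154, + strand: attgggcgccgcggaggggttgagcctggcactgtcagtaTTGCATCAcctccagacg
Tars, the threonine enzyme, chr15:11399654-11399713, - strand: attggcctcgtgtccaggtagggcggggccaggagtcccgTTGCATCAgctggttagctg
Yars, the tyrosine enzyme, chr4:129189866-129189925, + strand: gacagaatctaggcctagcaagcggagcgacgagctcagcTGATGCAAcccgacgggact

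The match began at position -112 relative to the annotated start in Aars, -30 in Gars, 8 in Iars, -15 in Tars and 4 in Yars, so that those of Iars and Yars lie in the transcribed part. Aars held a second match in its window. The 5 genes had TM4 log2 fold changes from -0.80 to -0.44 (median -0.72). The 8 cytosolic members whose window lacked the motif ran from -0.80 to 0.86 (median -0.28), with Sars and Eprs at -0.80 and -0.70. The 7 without a window had a median of -0.69. A match is a description of these letters and does not show binding.

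For the mitochondrial class, the core of the NRF1 site, CGCATGCG, was searched in the same way, since NRF1 is known to act on nuclear genes of mitochondrial proteins. It reads the same on both strands. It was in 2 of 14 mitochondrial windows, in none of 13 cytosolic windows, in 2.07% of all genes with a window and in 4.72% of those tested in TM4 cells. Both stretches are shown because they mark the only members with the site among those that had a window.
Vars2, the mitochondrial valine enzyme, chr17:35667620-35667679, - strand: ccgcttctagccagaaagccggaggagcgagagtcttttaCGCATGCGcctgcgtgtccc
Wars2, the mitochondrial tryptophan enzyme, chr3:99140987-99141046, + strand: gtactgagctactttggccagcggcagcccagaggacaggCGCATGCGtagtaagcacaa
Vars2 held 2 sites. Neither gene passed the test in TM4 cells, with log2 fold changes of 0.00 ± 0.11 for Vars2 and -0.11 ± 0.14 for Wars2.

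In C18-4 cells the synthetase genes hardly differed between shM5 and shNC. The median log2 fold change was 0.06 for the cytosolic members (13 higher, 7 lower), 0.03 for the mitochondrial members (9 higher, 8 lower) and -0.00 for all genes. No member passed an adjusted p of 0.05 (limma), where 0.586% of all 11611 genes did, and 1 member, Farsb, had an unadjusted p under 0.05, against 12.3% of all genes. The medians changed sign with 1 library left out, to -0.010 for the cytosolic members without shM5 replicate 3, and for the mitochondrial members to -0.0084 without shNC replicate 3 and -0.0092 without shM5 replicate 3. All 37 fold changes lay between -0.20 and 0.22. The groups did not overlap for Farsb (lower) and for Tars and Lars2 (higher), where 9.55% of all genes had all shM5 libraries below and 9.3% above.

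Farsb stood at 48.3, 47.3 and 44.9 RPKM in C18-4 shNC and at 42.0, 43.3 and 39.9 RPKM in shM5 (log2 fold change -0.17 ± 0.07, adjusted p = 0.395, limma). Tars read 116.5, 116.3 and 110.8 RPKM in shNC and 120.0, 120.2 and 128.2 RPKM in shM5 (0.10 ± 0.06). Lars2 read 6.57, 7.16 and 6.94 RPKM in shNC and 7.28, 8.07 and 8.27 RPKM in shM5 (0.19 ± 0.10). The margins between the groups were small in all 3 genes.

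Hars, Vars, Lars and Yars had larger fold changes than most, but their groups overlapped. Hars was at 86.0, 81.6 and 55.5 RPKM in shNC and at 95.2, 90.5 and 70.8 RPKM in shM5, with replicate 3 the lowest of each group (0.22 ± 0.19). Vars, for valine, had -0.16 ± 0.09, Lars 0.15 ± 0.16 and Yars -0.15 ± 0.18. Without shNC replicate 3, Hars was at 0.018 and Yars at 0.014. Without shM5 replicate 3, Lars was at 0.014 and Yars at -0.30. Among mitochondrial members, Rars2 had -0.20 ± 0.09 and Mars2 -0.17 ± 0.14. None of these passed.

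Libraries with the same replicate number deviated together in C18-4 cells, and pairing them changed 1 call. With the replicate number as a block, Hars rose by 0.22 (SE 0.06, adjusted p = 0.045, limma), and it was the only member to pass, where 5.21% of all genes passed as higher and 6.73% as lower. Within each pair, Hars was higher in shM5 in 3 of 3. The same held for members that did not pass, such as Aars, Lars and Tars, and Farsb, Vars and Yars were lower in every pair. The share of all genes with such agreement was not counted. Without replicate 3 of both groups, an alternative chosen after seeing the data, 6 members passed (Aars, Hars and Lars higher, Farsb, Vars and Rars2 lower), where 26.2% of all genes passed. All 6 changes were at most 0.31 in size on the log2 scale.

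In C18-4 cells, replicate 3 differed from replicates 1 and 2 in both groups. In replicate 3 minus replicates 1 and 2, the cytosolic members had a median log2 difference of 0.18 in shNC and 0.23 in shM5, the mitochondrial members -0.04 and 0.17, the ATF4 arm 0.66 and 0.56, and all genes 0.11 and 0.08. Sars was at 85.6, 84.7 and 122.6 RPKM in shNC and at 83.6, 86.6 and 114.0 RPKM in shM5. Eprs was at 85.6, 91.4 and 123.6 RPKM in shNC and at 94.4, 94.1 and 122.8 RPKM in shM5. Both replicate 3 libraries lay above the other 4 for 12 of 20 cytosolic and 4 of 17 mitochondrial members, against 34.4% of all genes. They lay below the other 4 for Farsa, Hars, Kars, Qars and Rars, and for Cars2 and Yars2, against 16.2% of all genes. Hars, Kars and Qars are the 3 cytosolic members that were also lowest in TM4 shNC replicates 1 and 2. What this replicate shared was not tested.

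Between the lines, summed cytosolic synthetase levels in the shNC groups were lower in C18-4 cells only against TM4 shNC replicates 1 and 2. The sums were 2045, 2022 and 2214 RPKM in C18-4 shNC, and 3394, 3431 and 2007 RPKM in TM4 shNC. TM4 shNC replicate 3 thus lay below every C18-4 shNC library. In the fit of the shNC groups, 12 cytosolic members were lower in C18-4 cells, and 5 mitochondrial members were higher and 4 lower (limma, adjusted p below 0.05). Of all genes, 40% passed as higher and 25.6% as lower in C18-4 cells. The median log2 difference of C18-4 minus TM4 was -0.63 for the cytosolic and 0.02 for the mitochondrial members, against 0.15 for all genes. Without TM4 shNC replicate 3, 29 members passed (7 higher, 22 lower), where 44.1% and 29.5% of all genes did.

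In the shM5 groups the cytosolic classes of the lines lay close together. Only 5 cytosolic members passed (Nars higher, and Farsa, Farsb, Kars and Vars lower in C18-4 cells), with a median of -0.01. The mitochondrial count was 5 higher and 5 lower, with a median of 0.03. The shares of all genes were 37% higher and 24.2% lower, with a median of 0.12. Without TM4 shNC replicate 3, which enters here only through the shared estimate of the spread, 11 cytosolic members passed (4 higher, 7 lower), where 42.1% and 28.3% of all genes did.

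Some members kept a difference between the lines in both groups. Farsb was at 46.8 RPKM ± 1.8 in C18-4 shNC and 115 RPKM ± 37 in TM4 shNC (log2 difference -1.24 ± 0.19, adjusted p = 0.00014, limma), and the shM5 groups gave -0.76 ± 0.19. Sars2 was at 8.09 RPKM ± 0.83 in C18-4 and 4.45 RPKM ± 0.43 in TM4 cells given shNC (0.85 ± 0.15), and the shM5 groups gave 1.30 ± 0.15. Mars2, for methionine, was at 2.81 RPKM ± 0.26 and 5.11 RPKM ± 0.46 in shNC (-0.84 ± 0.12), and the shM5 groups gave -0.76 ± 0.12. Nars2 was at 5.02 RPKM ± 0.29 and 13.6 RPKM ± 3.8 in shNC (-1.38 ± 0.20), and the shM5 groups gave -0.89 ± 0.20. These 4 genes passed in both groups, with n = 3 in each. Farsa, Vars, Fars2, Hars2, Iars2, Lars2 and Wars2 also passed in both groups, each in the same direction. The share of all genes that passed in both groups was not counted.

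The asparagine enzymes differed between the lines in opposite ways in the shM5 groups. There, Nars was higher in C18-4 cells by a log2 difference of 1.30 ± 0.26 and Nars2 lower. The ratio of Nars to Nars2 was thus 56.1 to 69.4 in C18-4 and 12.02 to 14.3 in TM4 cells given shM5. In the shNC groups the ratio was likewise apart, at 52.2 to 60.9 in C18-4 and 13.2 to 18.9 in TM4 cells. Nars2 was lower in C18-4 cells there too, while the log2 difference of Nars was 0.40 ± 0.26 and did not pass (adjusted p = 0.203, limma). Tars and Cars passed in the shNC groups, at -1.01 ± 0.18 and -0.89 ± 0.22, and did not pass in the shM5 groups, at -0.29 ± 0.18 and -0.10 ± 0.22. TM4 shNC replicates 1 and 2 were the highest libraries for both genes. For Tars, every TM4 library (148.0 to 280.6 RPKM) lay above every C18-4 library (110.8 to 128.2 RPKM).

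**Figure D5:**
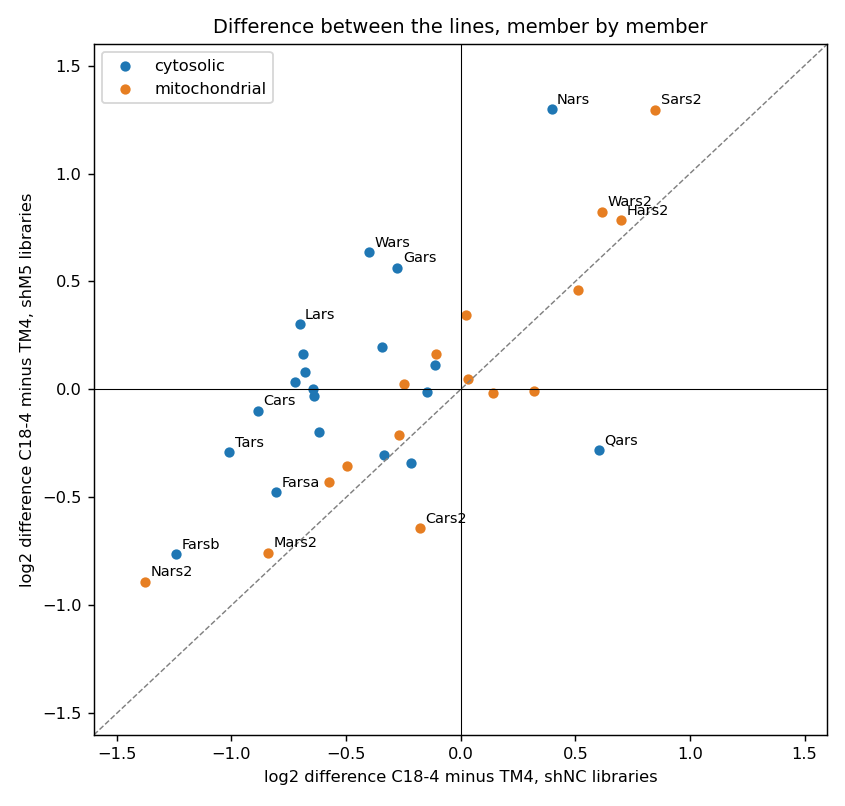
Log2 difference C18-4 minus TM4 of 36 members in the shNC libraries (horizontal axis) and in the shM5 libraries (vertical axis), with a dashed line of equal values. Most cytosolic members lie above the dashed line and left of 0 while mitochondrial members run along it, and Nars and Sars2 reach 1.30 in the shM5 libraries.

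The shM5 effect itself was compared between the lines in a fit of all 12 libraries. No member passed, where 0.102% of all 11773 genes did, and 13 members had an unadjusted p under 0.05, against 20.9% of all genes. Lars and Wars had the largest differences, 1.005 ± 0.38 and 1.03 ± 0.41 on the log2 scale (C18-4 minus TM4), and Qars the lowest at -0.88 ± 0.37. Without TM4 shNC replicate 3, 20 members passed as higher in C18-4 cells and 4 as lower, where 16.4% and 21.5% of all genes did. The count thus rests on which TM4 shNC libraries enter.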

How the data were processed

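mRNA of C18-4 and TM4 cells was enriched with oligo(dT) and sequenced on an Illumina HiSeq. The authors mapped reads with SOAPaligner and deposited RPKM values with 2 decimals for 17995 genes. The genome build and annotation are not given in the sources used here. The authors tested with DEGseq. RPKM keeps no read numbers, so the counting error of a value is not known. Group and replicate number came from the labels, and 0 columns were left unmapped.

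log2(RPKM + 0.1) was fitted with limma 3.58.1 (R 4.3.3) where a gene's mean reached 0.5 RPKM, with eBayes and trend, Benjamini-Hochberg adjustment over all genes and a threshold of 0.05. Each line was fitted alone (11611 and 11016 genes), and the lines were compared in 1 fit of 12 libraries (11773 genes). The fits were tested on simulated data whose spread came from shM5 replicates 1 and 2 of each line. These libraries lay close together, at a root mean square log2 difference of 0.200 in C18-4 and 0.193 in TM4 cells. The simulation therefore cannot show how the fits perform where a library stands apart from its group. A fold change on this scale understates the change of low genes. Promoter motifs were searched in Python 3.11.15 with RefSeq windows matched by gene ID.

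The members and lists were chosen with earlier results of these data known. Named members were, in each line, the 5 cytosolic and 3 mitochondrial members with the largest absolute log2 fold change; the 3 of each class with the largest line difference in shNC; any member called; the highest and lowest of each class; and the 3 pairs that differed most in TM4. Other names were chosen after their values were seen. Same-numbered C18-4 libraries deviated together from their group means (correlations across genes of 0.439, 0.409 and 0.631), which pairs them by the data and not by the labels, mainly through replicate 3. Alternatives were other pseudocounts, filters, scaling, no trend, the replicate block and each library left out. Protein sequences were not analysed here. The values of 1 mitochondrial member enter the counts and medians but are not reported here.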

Additional observations from a re-analysis of the deposited data

Results flagged for a closer look

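Tars, the threonine enzyme, had all shM5 libraries above all shNC libraries in C18-4 cells and all shM5 libraries below in TM4 cells. Of all genes, 9.3% had them all above in C18-4 cells and 11.1% all below in TM4 cells. The share of all genes with both was not counted. The difference of the shM5 effect, C18-4 minus TM4, was 0.72 ± 0.25 on the log2 scale (adjusted p = 0.194, limma), and the test of the difference did not pass. Without TM4 shNC replicate 3 it was 0.996 ± 0.07 (adjusted p = 1.8e-05, limma). In TM4 cells, shNC replicate 3 (156.7 RPKM) lay just above the highest shM5 library (154.3 RPKM), and shNC replicates 1 and 2 stood at 278.9 and 280.6 RPKM.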

How the results depend on the processing

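No change of pseudocount (0.01 or 1), filter, scaling or trend moved a count of members past the threshold by more than 1.5 times, and the TM4 and C18-4 counts stayed at 0 under these. Leaving out 1 library at a time gave 0 to 28 members in TM4 cells and 0 to 24 for the shM5 effect between the lines, and TM4 shNC replicate 3 gave both upper ends. At these upper ends, 7433 of 11026 and 4477 of 11793 genes passed. The count between the lines in shNC ran from 14 without TM4 shNC replicate 1 to 29 without TM4 shNC replicate 3. At the upper end, 8672 of 11793 genes passed. Without replicate 3 of every group, chosen after seeing the data, the counts were 6 in C18-4 cells and 29 in TM4 cells. They were 29 between the lines in shM5 and 27 for the effect between the lines. In the same order, 3029 of 11549, 8016 of 11030, 9327 of 11724 and 7022 of 11724 genes passed. The fit with the replicate block gave 1 member in C18-4 cells and 0 in TM4 cells. It gave 18 between the lines in shNC, 14 in shM5 and 0 for the effect between the lines. In the same order, 1386 of 11611, 0 of 11016, 7533 of 11773, 6983 of 11773 and 1 of 11773 genes passed. In TM4 cells, correlations of same-numbered libraries were 0.073, 0.049 and 0.127, so the libraries shared only a number. The mitochondrial median in TM4 cells, -0.01, was -0.0426 when rescaled to the median ratio and ran from -0.0804 to 0.00937 with 1 library left out. The sign of Yars in C18-4 cells turned to 0.0135 without C18-4 shNC replicate 3, and its value was -0.298 without C18-4 shM5 replicate 3, the ends of its range. It passed in neither. The cause of these shifts was not tested beyond the libraries left out. The motif count was 5 with TGATGNAA and 4 with TGATGCAA. The planned comparison of protein identity was not run.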
